A study of Mus musculus with 3 samples.

Results

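Inositol polyphosphate 5-phosphatases remove the phosphate at the 5 position of the inositol ring, either from membrane phosphoinositides or from soluble inositol phosphates. The genes described here are Inpp5a, Inpp5b, Inpp5d, Inpp5e, Inpp5j, Inpp5k, Inppl1, Synj1 and Synj2 together with Inpp5f, 10 genes in all, and they were measured in the cortex of mice with one altered copy of Gtf2i. Their probes were those whose accession belongs to one of these symbols in RefSeq, which gave 12 probes for 9 genes out of 41174 gene probes and 15724 named genes. No accession matched Synj1, so this gene was not analysed here. They were chosen by the family name with their log2 ratios on these arrays already known, among them the high ratio of Inpp5f and the gap between its probes. The ratios of the members are therefore a description. Where a member is said to have passed or missed the threshold used for all probes, that places it among them and is no test of it, and no p-value is given.

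Each of 3 two-colour Agilent arrays compared Gtf2i(+/Δex2) RNA, from mice heterozygous for an allele named for the loss of exon 2, with WT (+/+) RNA from the cortex at an age of 16 weeks. Both genotypes shared a mixed background of 98.4% C57BL/6J and 1.6% 129Sv/CD1, and each RNA was a pool from 3 to 5 mice. The mutant RNA carried Cy3 on replicates 1 and 3 and Cy5 on replicate 2. Nothing in the labels says whether the 3 arrays used separate pools, so each SD and p-value covers variation among arrays only, part or all of it perhaps technical. With 3 arrays the precision is limited.

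Values are log2 ratios of the channel deposited as Cy5, corrected for the dye swap, over the one deposited as Cy3. That this is mutant over wild type is likely rather than stated. The titles name the mutant first, and the readme sets a test sample against a control. The Pro25G control spots read 4.51, -4.54 and 4.58 on replicates 1 to 3 and so turn with the dyes. With this direction Gtf2i, the altered gene, read -0.47 ± 0.04 and -0.32 ± 0.05 at its 2 probes (SD, n = 3 arrays; limma adjusted p = 0.00261 and 0.00506, the second 0.056 without replicate 1). The files do not place these probes within or outside exon 2. The cortical neuron genes Slc17a7, Tbr1, Camk2a and Neurod6 were reliable on all 3 arrays, with all 5 of their probes. A probe was tested when it was reliable, meaning a foreground above 2 times the background, on at least 2 arrays. This left 27531 probes, of which 9333, or 33.9%, passed a limma adjusted p of 0.05 against a ratio of 0.

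As background, phosphoinositides are the phosphorylated forms of phosphatidylinositol, and each form marks certain membranes. The plasma membrane form with phosphates at positions 4 and 5 is also the precursor of the messenger IP3, which releases calcium from the endoplasmic reticulum. Inpp5a acts on soluble IP3, whereas Inpp5b, Inpp5e, Inpp5j, Inpp5k, Inppl1 and Inpp5d act mainly on lipids. The synaptojanins Synj1 and Synj2 combine a 5-phosphatase domain with a Sac phosphatase domain and help strip the clathrin coat from vesicles at nerve terminals. Inpp5f, also called Sac2, carries the name of the family but has a Sac domain, acts on the phosphate at position 4 and is found on endosomes. In mouse brain it also yields shorter transcripts that are imprinted and read from the paternal copy.

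Gtf2i encodes TFII-I, a factor known to bind initiator elements and E-boxes in promoters. Sequence upstream of the first annotated base of Inpp5f and Inpp5d, whose probes all read higher in the mutant, and of Inpp5b, which read lower, is shown to set them side by side. The sequences are from RefSeq on GRCm38.p6, all on the plus strand and 5′ to 3′. They cover chr7:128611115-128611180 for Inpp5f, chr1:87620062-87620311 for Inpp5d and chr4:124741600-124741826 for Inpp5b. Capitals mark matches to the E-box core CANNTG, which reads the same on both strands and includes CACGTG as a special case.
Inpp5f: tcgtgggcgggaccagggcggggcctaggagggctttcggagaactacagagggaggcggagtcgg
Inpp5d: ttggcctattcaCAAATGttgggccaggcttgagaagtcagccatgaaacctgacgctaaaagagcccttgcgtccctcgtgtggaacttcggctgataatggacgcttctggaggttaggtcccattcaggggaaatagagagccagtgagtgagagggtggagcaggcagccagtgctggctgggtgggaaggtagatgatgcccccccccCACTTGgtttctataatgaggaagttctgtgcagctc
Inpp5b: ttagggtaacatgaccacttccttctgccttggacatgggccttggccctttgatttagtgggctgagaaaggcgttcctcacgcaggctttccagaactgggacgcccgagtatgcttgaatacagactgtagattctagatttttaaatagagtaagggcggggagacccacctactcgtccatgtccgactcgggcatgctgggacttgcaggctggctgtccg
The stretch of Inpp5d held 2 matches to CANNTG and those of Inpp5f and Inpp5b held 0. Over the whole 300-base windows of the same table the counts were again 2, 0 and 0, and 72.3% of 32851 such windows held at least 1 match. CACGTG was in none of these 3 windows and in 7.15% of all windows. These are matches of letters and say nothing about binding.

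Inpp5f read higher in the mutant at both of its probes and on every array, to 198% of wild type at one probe and 118% at the other (50.5% and 84.6% if the inferred direction were turned). Probe A_52_P213561 had signals of 207, 252 and 159 in wild-type RNA on replicates 1, 2 and 3, and of 421, 488 and 313 in mutant RNA. Every mutant signal therefore lay above every wild-type signal at this probe. The share of all tested probes without such overlap was not counted, here or for the genes below. Its log2 ratios were 1.02, 0.95 and 0.98, with a mean of 0.99 ± 0.04 (SD, n = 3 arrays). Of the 27531 tested probes 21 had a higher mean ratio, and 157 probes, or 0.570%, were at least 1.5-fold higher in the mutant.

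Probe A_51_P176054 of the same accession, NM_178641, read 2305, 2672 and 2175 in wild-type RNA and 2710.45, 3209 and 2547 in mutant RNA on replicates 1 to 3. On each array the mutant signal was the higher, but the 2 sets overlapped, since the wild-type signal of replicate 2 lay above the mutant signal of replicate 3. The log2 ratios were 0.23, 0.26 and 0.23, with a mean of 0.24 ± 0.02 (SD, n = 3). The replicate with exchanged dyes gave the lowest of the 3 ratios at A_52_P213561 and the highest at A_51_P176054. With the dye as a covariate the means were 0.98 and 0.25. Both probes were past the threshold with all arrays. A_51_P176054 was not without replicate 1, whereas A_52_P213561 was in every other setting tried.

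**Figure D1:**
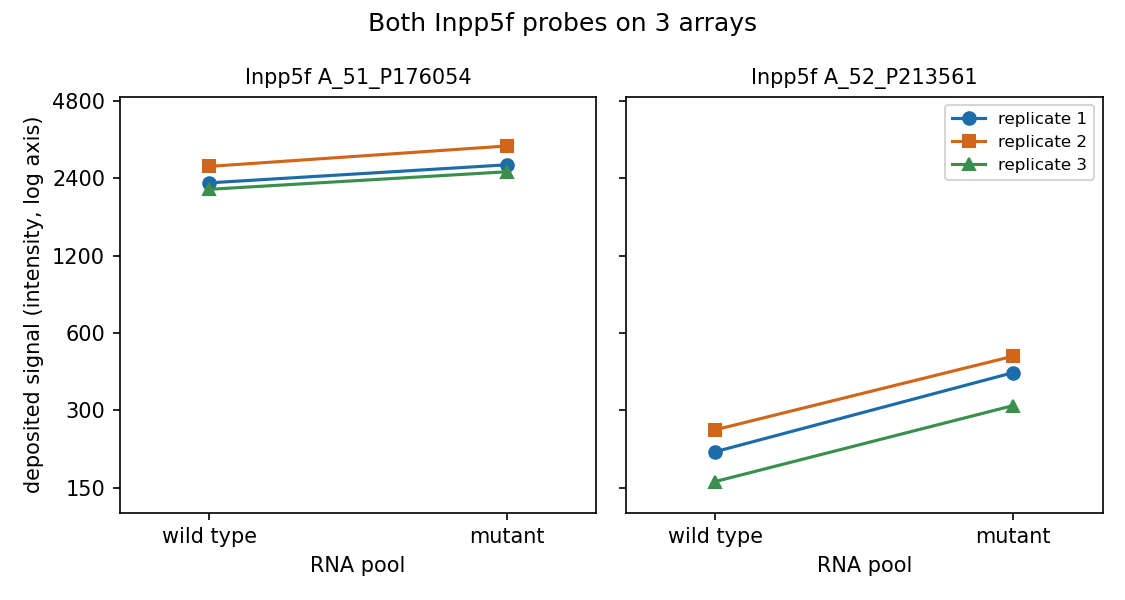
Deposited signal (intensity, log axis) of the 2 Inpp5f probes in wild-type and mutant RNA; each line joins both channels of 1 of the 3 arrays. The lines of A_52_P213561 rise from 159 to 252 up to 313 to 488, and those of A_51_P176054 rise less steeply, from 2175 to 2672 up to 2547 to 3209.

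The difference between the probes had one sign on all arrays. A_52_P213561 exceeded A_51_P176054 by 0.79, 0.69 and 0.75 on replicates 1, 2 and 3, or 0.74 ± 0.05 on the log2 scale (SD, n = 3). The dimmer probe had the larger ratio, and it lay nearer to the level of the negative control spots, whose medians were 72.3 to 81.4 over arrays and channels. On replicates 1 and 3 its wild-type signal fell between 150 and 250, a range that the readme calls marginal, although it also calls signals above 200 present. With the median of the negative controls subtracted from each channel, its mean ratio was 1.38, that of A_51_P176054 was 0.25, and the difference was 1.13. In signal units the mutant excess was 214, 235 and 155 at A_52_P213561 and 405, 537 and 371 at A_51_P176054. The files do not say which Inpp5f transcripts each probe detects.

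Named accessions with exactly 2 tested probes gave 2746 pairs, and those with more tested probes were left out. The pairs differed by a median of 0.14 in mean log2 ratio, and 1 in 10 pairs by more than 0.46. In 50 pairs, 1.82%, with Inpp5f itself counted, the probes were at least as far apart as those of Inpp5f. Both probes passed the threshold in 527 pairs, of which 394 had the same direction and 133 opposite directions. Inpp5f was among those with the same direction. The pairs of Inpp5e and Inpp5k, by contrast, differed by 0.03 ± 0.11 and 0.02 ± 0.12 (SD, n = 3), with signs that changed between arrays.

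**Figure D2:**
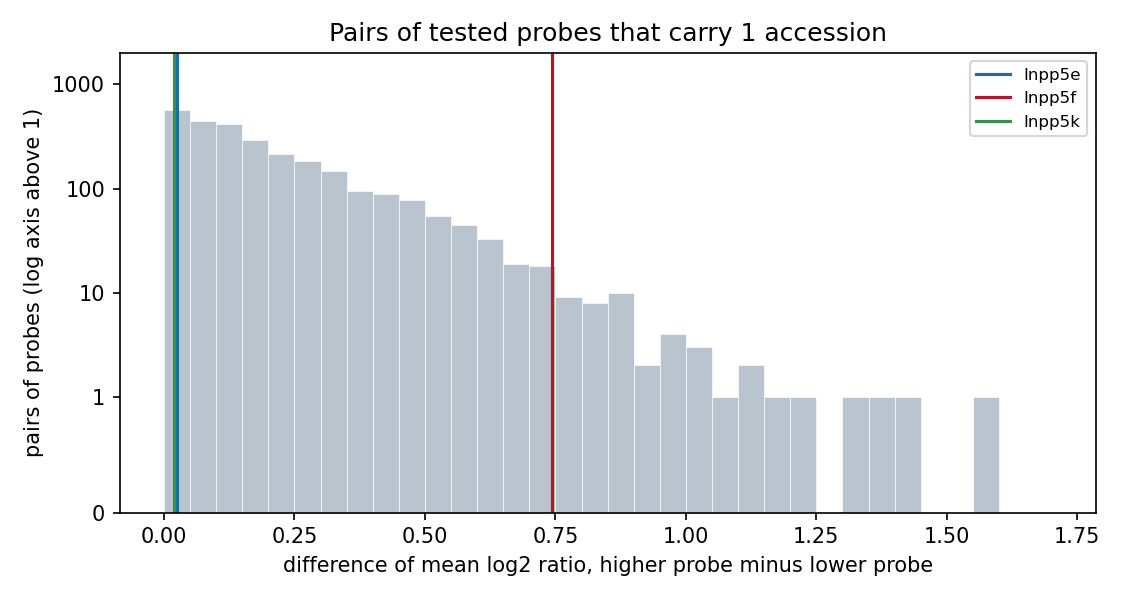
Number of probe pairs (log axis above 1) by the difference in mean log2 ratio between the higher and the lower probe of 1 accession. The 2746 pairs are from accessions with exactly 2 tested probes. Coloured lines mark Inpp5e at 0.03, Inpp5k at 0.02 and Inpp5f at 0.74, where 50 pairs, Inpp5f counted, were at least as far apart.

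The gene that follows Inpp5f on the chromosome is Mcmbp, which encodes a binding partner of the MCM replication helicase. Its probes differed in sign, whereas those of Inpp5f differed in size only. Its probe A_52_P171033 read 0.83, 0.97 and 0.50 on replicates 1 to 3 (mean 0.76 ± 0.24, SD, n = 3; limma adjusted p = 0.00477). Its other probes read -0.22 ± 0.05 (A_52_P51192, limma adjusted p = 0.0139), -0.15 ± 0.06 (A_51_P445932, 0.0441) and -0.07 ± 0.06 (A_52_P345981, 0.234). A_52_P51192 and A_51_P445932 lost their calls without replicate 1 (limma adjusted p = 0.129 and 0.261), and with replicates 1 and 2 averaged (0.0644 and 0.152). A_51_P445932 also lost it without replicate 2 (limma adjusted p = 0.118), after loess (0.0511) and with no filter on dim probes (0.0663). On the other side of Inpp5f the co-chaperone gene Bag3 averaged 0.03 ± 0.45, the RNA-binding protein gene Tial1 -0.12 ± 0.09 and the G-protein regulator gene Rgs10 0.02 ± 0.10, and none passed the threshold (limma adjusted p = 0.887, 0.11 and 0.812). Sec23ip and Plpp4, the next genes after Mcmbp, had no matched probe.

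The named genes whose ratios on the 3 arrays lay closest to those of A_52_P213561, by Euclidean distance over the arrays, were Sh3bgrl (distance 0.15), Actr2 (0.22), Vash2 (0.24), Srsf1 (0.25) and Iah1 (0.28). Those closest to A_51_P176054 were Tmc7, Ercc8, Col18a1, Ankra2 and Celsr1, at distances of 0.01 to 0.02. Ratios as high as that of A_51_P176054 were common, with 2442 tested probes above its mean. Both sets are a description over 3 values.

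Of the 12 probes of the family 5 passed the threshold, 3 higher and 2 lower, or 41.7% against 33.9% of all tested probes (15.0% higher and 18.9% lower). Without replicate 1 the count was 1 of 12, or 8.33%, against 8.74% of all tested probes, and with replicates 1 and 2 averaged it was 2, or 16.7%, against 18.6%. In both settings the share of the family lay near that of all tested probes. The median of the 12 mean ratios was -0.03, beside 0.00 for all tested probes. All 12 were reliable on all 3 arrays. Of the 12, 9 had one sign on all arrays, against 65.1% of all tested probes: 3 were above 0 on all arrays (31.6% of all tested probes) and 6 below 0 (33.5%). Setting Inpp5f aside, the 10 probes of the 8 other genes ranged from -0.23 to 0.21 with a median of -0.06. Of these 10, 3 passed, 1 higher and 2 lower, or 30% against 33.9% of all tested probes. Both Inpp5f probes, known beforehand to be high, made up the rest of the calls.

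**Figure D3:**
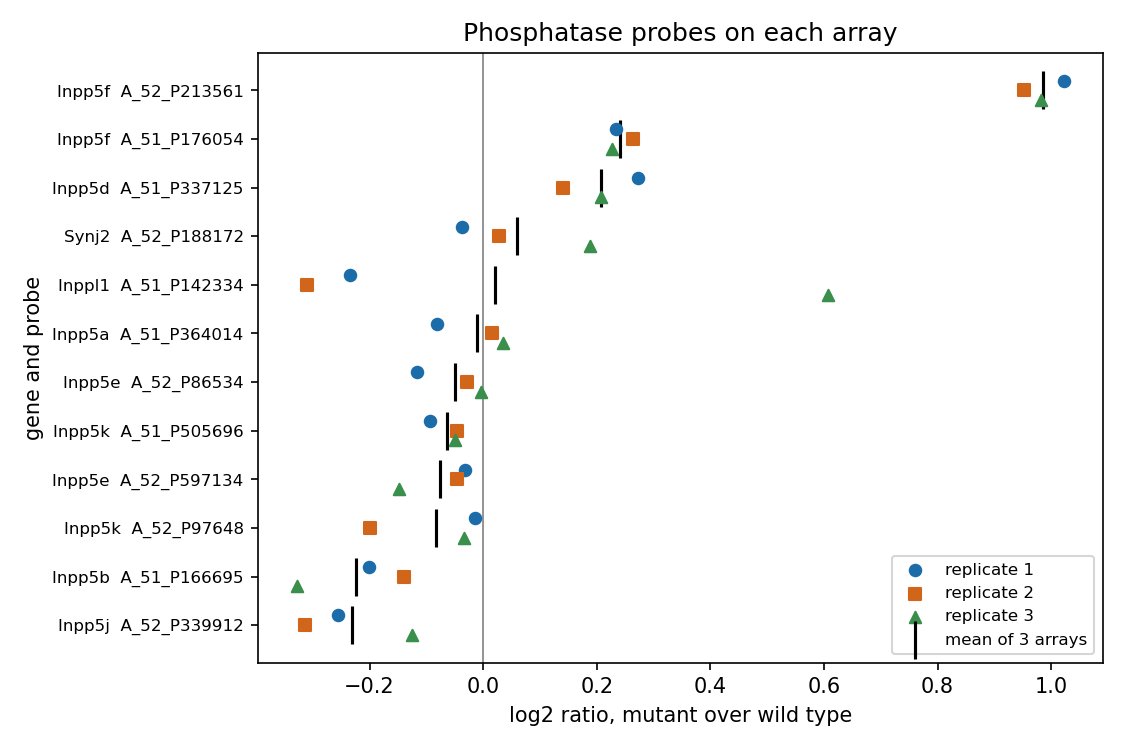
Log2 ratio of mutant over wild type for the 12 probes on each of 3 arrays, ordered by their mean (black bar). The higher Inpp5f probe stands apart near 0.99, the other probes average between -0.23 and 0.24, and Inppl1 is split between replicates 1 and 2 below 0 and replicate 3 at 0.61.

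Inpp5d encodes SHIP1, which turns the product of PI3-kinase into its form without the 5-phosphate and is made mainly by blood cells and microglia. Its probe A_51_P337125 gave signals of 682, 760 and 772 in wild-type RNA and 824, 838 and 892 in mutant RNA on replicates 1 to 3. All mutant signals were above all wild-type signals, with no share over all tested probes counted for such a separation. The log2 ratios of 0.27, 0.14 and 0.21 averaged 0.21 ± 0.07 (SD, n = 3), or 115% of wild type. It was above the threshold with all arrays, and not without replicate 1 or with replicates 1 and 2 averaged.

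Microglial markers mostly moved the other way. Of the 10 tested probes for 7 of 8 microglial marker genes, 7 passed as lower and 1 as higher, with median log2 ratios of -0.22, -0.22 and -0.17 on replicates 1 to 3. Tmem119 read -0.24 ± 0.01, Tyrobp -0.26 ± 0.03 and P2ry12 -0.16 ± 0.06, while the probes of Aif1 read 0.17 ± 0.05, which passed, and 0.07 ± 0.04, which did not (SD, n = 3). Their limma adjusted p were 0.00832, 0.00707, 0.0354, 0.0276 and 0.215. The summed signal of these probes ran from 5368 to 5664 in wild-type RNA and from 5010 to 5343 in mutant RNA, and no marker was at 0. Of 7 tested probes for 4 blood cell genes, 4 passed as lower and none as higher, with a median log2 ratio of -0.26. Among them Ptprc, a marker of white blood cells, read 0.12 ± 0.06 (SD, n = 3, limma adjusted p = 0.0825), and the hemoglobin gene Hba-a1 -0.65 ± 0.22 (0.00569). In RNA from whole tissue, a change in the number of cells of a type cannot be told apart from a change of RNA per cell, and the part of cell makeup in the Inpp5d ratio was not tested.

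Inppl1 encodes SHIP2, the broadly expressed relative of SHIP1, and its 3 arrays did not point one way. Probe A_51_P142334 gave 1760, 2082 and 1190.08 in wild-type RNA and 1495, 1679 and 1812 in mutant RNA on replicates 1 to 3. The log2 ratios were -0.23 and -0.31 on replicates 1 and 2 and 0.61 on replicate 3, so that the mean of 0.02 ± 0.51 (SD, n = 3) describes none of them. Without replicate 3 the mean was -0.27 and passed the threshold as lower. Replicates 1 and 3 had the same dye order and opposite signs. Of the 27531 tested probes 1928 were below 0 on replicates 1 and 2 and above 0 on replicate 3. With Inppl1 itself counted, 129 tested probes had an SD at least as large, and 5 were at least as low on replicates 1 and 2 and at least as high on replicate 3.

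Replicate 3 also stood apart in markers of the thalamus, a region beneath the cortex. Their 11 tested probes, for all 5 genes of the list, had median log2 ratios of -0.07, 0.03 and 0.55 on replicates 1 to 3, and 1 passed the threshold, a Tcf7l2 probe at 0.94 ± 0.71 (SD, n = 3; limma adjusted p = 0.0403). Zic1, a transcription factor gene, read 0.04, 0.09 and 1.43 at one probe, and Prkcd, a protein kinase C gene, -0.26, -0.19 and 1.13 at one probe. On replicate 3 their other probes read 1.36 for Zic1 and 0.48 for Prkcd. The Rora probes read 0.55 and 0.59 there, and the Calb2 probes 0.04, 0.31 and 0.02. The summed signal of the list ran from 3990 to 9485 in wild-type RNA and from 8576 to 10635 in mutant RNA, and no marker was at 0. The first Zic1 probe gave 2439, 2719 and 801 in wild-type RNA and 2511, 2890 and 2160 in mutant RNA. The Tcf7l2 probe that passed gave 1945, 2083 and 613 in wild-type RNA and 2679, 3151 and 2071 in mutant RNA. At these probes the high ratio of replicate 3 thus came with a low wild-type signal and no rise of the mutant signal. Endothelial markers had the same low, low and high order as Inppl1. Their 4 tested probes, for 3 of 4 genes, had median log2 ratios of -0.16, -0.36 and 0.24, and limma adjusted p from 0.375 to 0.894. Cldn5, a tight junction gene of brain vessels, read -0.35, -0.43 and 0.27 on replicates 1 to 3. The summed signal of these probes ran from 3952 to 5382 in wild-type RNA and from 4181 to 4969 in mutant RNA. Medians were also highest on replicate 3 for striatal (-0.34, -0.58 and -0.00058), inhibitory neuron (-0.53, -0.41 and -0.05) and blood cell markers (-0.40, -0.47 and -0.08). The same held for oligodendrocyte, microglial and choroid plexus markers, but not for excitatory, general neuron or astrocyte markers. Whether tissue makeup has a part in the Inppl1 value of replicate 3 was not tested. On replicate 3 the Inpp5f probes read 0.98 and 0.23 and Inpp5d 0.21, near their means over the 3 arrays of 0.99, 0.24 and 0.21. Astrocyte markers also had similar medians on the 3 arrays (-0.42, -0.49 and -0.46), so an even ratio does not set a gene apart from cell markers. The part of tissue makeup in the Inpp5f ratios was not tested.

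**Figure D4:**
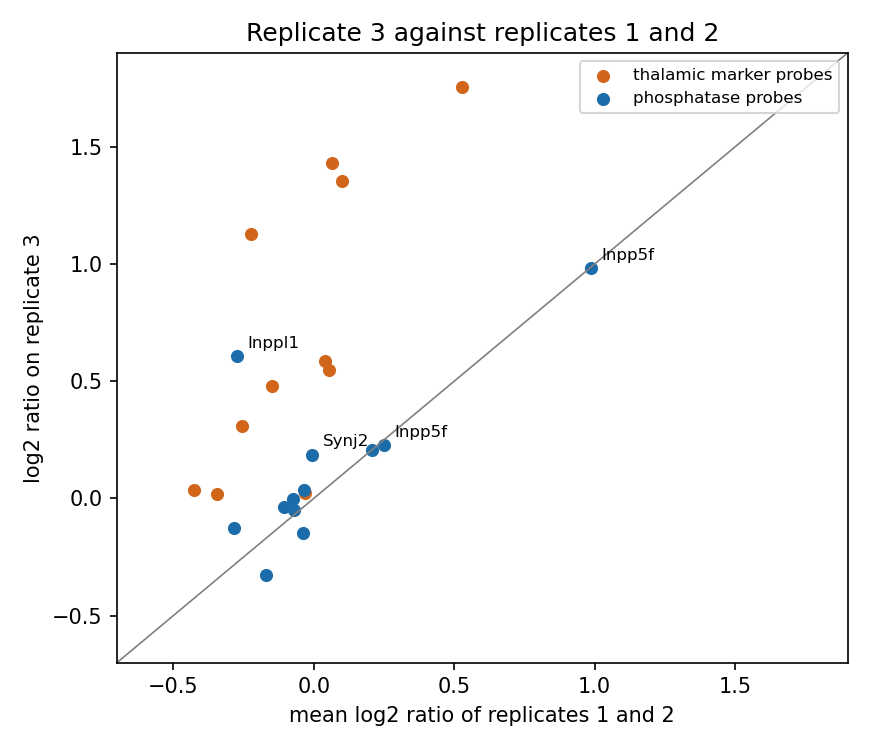
Log2 ratio on replicate 3 against the mean of replicates 1 and 2 for the 12 phosphatase probes (blue) and the 11 thalamic marker probes (orange), with the line of equality. Inppl1, at 0.61 on replicate 3, lies above the line with the thalamic probes, and both Inpp5f probes lie on or close to it.

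Inpp5b and Inpp5j read lower in the mutant on every array. Inpp5b, whose product acts on membranes of the Golgi and early endosomes and is the close relative of the Lowe syndrome protein OCRL, gave signals of 163, 157 and 173 in wild-type RNA and 142, 143 and 138 in mutant RNA (probe A_51_P166695). The log2 ratios were -0.20, -0.14 and -0.33, with a mean of -0.22 ± 0.10 (SD, n = 3), or 85.7% of wild type. All mutant signals were below all wild-type signals, with no share over all tested probes counted for such a separation. The mutant signals were also under 150, the level below which the readme calls a spot absent. With the negative controls subtracted the mean was -0.48, more than 1.5 times as far from 0. Ocrl itself read 0.01 ± 0.08 and 0.03 ± 0.08 at its 2 probes (SD, n = 3; limma adjusted p = 0.941 and 0.668).

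Inpp5j, also called PIPP, is a proline-rich 5-phosphatase of the plasma membrane. Its probe A_52_P339912 gave 281, 288 and 289 in wild-type RNA and 235, 231 and 265 in mutant RNA on replicates 1 to 3. These did not overlap, and how common this was over all tested probes was not counted. The log2 ratios were -0.26, -0.31 and -0.13, with a mean of -0.23 ± 0.10 (SD, n = 3), or 85.2% of wild type. The calls of Inpp5b and Inpp5j were both lost without replicate 1 and with replicates 1 and 2 averaged, and that of Inpp5j also without replicate 2.

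Inpp5a, Inpp5e, Inpp5k and Synj2 did not pass the threshold. Inpp5a, the enzyme that ends the IP3 signal, had log2 ratios of -0.08, 0.02 and 0.04, with wild-type signals of 1061, 1106 and 1005 and mutant signals of 1004, 1118 and 1029.7. Its groups overlapped, and its mean of -0.01 ± 0.06 (SD, n = 3) was the nearest to 0 in the family.

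Inpp5e works in the primary cilium, and loss of its human counterpart causes Joubert syndrome. Its probe A_52_P86534 read 256, 244 and 261 in wild-type RNA and 236, 239 and 260.5 in mutant RNA, a mean log2 ratio of -0.05 ± 0.06. Its probe A_52_P597134, with signals between 159.8 and 188, all in the marginal range, averaged -0.08 ± 0.06 (SD, n = 3). The Inpp5e ratio was below 0 on every array at both probes, and neither passed.

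Inpp5k, also called SKIP, sits on the endoplasmic reticulum and is linked to insulin signalling. Its probes A_51_P505696 and A_52_P97648 averaged -0.06 ± 0.03 and -0.08 ± 0.10 (SD, n = 3). Both were below 0 on all 3 arrays, with ratios of -0.09, -0.05 and -0.05 at the first and -0.01, -0.20 and -0.03 at the second. Neither passed.

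Synj2, the synaptojanin with wide expression outside nerve terminals, gave 189, 187 and 182 in wild-type RNA and 184, 190.2 and 208 in mutant RNA at probe A_52_P188172, all between 150 and 250. Its ratios of -0.04, 0.03 and 0.19 averaged 0.06 ± 0.12 (SD, n = 3), and replicate 3 was again the highest.

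Genes on which the same lipids and inositol phosphates depend were counted in 5 lists, by probe and beside the 33.9% of all tested probes. Markers of whole cell classes moved in the same tissue. Of 5 probes for excitatory neuron genes 4 passed as lower, with a median log2 ratio of -0.21 and a summed signal of 25179 to 42019 in wild-type and 19313 to 32064 in mutant RNA. Of 7 tested probes for 4 of 5 astrocyte genes 5 passed as lower, with a median of -0.45. Their summed signal was 16923 to 18200 in wild-type and 11543 to 12435 in mutant RNA. Of 9 probes for 3 of 4 general neuron genes 3 passed as lower, all of Syt1, and 2 as higher, both of Snap25. Their median was -0.11. Inhibitory neuron genes had 2 of 5 probes lower and none higher (median -0.30). Oligodendrocyte genes had 3 of 8 lower and 1 higher (median -0.21). Choroid plexus genes went the other way, with 3 of 6 probes higher and none lower (median 0.14). The part of cell makeup in the counts of the 5 lists was not tested.

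Among the endocytic partners of the synaptojanins most calls were lower. Of 18 tested probes for 11 of 12 genes, 9 were lower and 2 higher (61.1%), with a median log2 ratio of -0.27. Dnm1, the dynamin that pinches off vesicles at synapses, read -0.52 ± 0.10, and Sh3gl2, the endophilin gene whose product recruits synaptojanin, -0.47 ± 0.04. The intersectin gene Itsn2 read -0.79 ± 0.09 at one probe and -0.04 ± 0.06 at the other tested probe, and Dnm2 -0.31 ± 0.01 and -0.11 ± 0.17 (SD, n = 3). The limma adjusted p of the lower probes named here ran from 0.00201 for Itsn2 to 0.00438 for Dnm2. Synj2 itself was not called, and the share is a description with no test of the list.

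Phosphoinositide kinases, which add the phosphates, were mostly lower where they passed. Of 16 tested probes for 12 of 16 genes 7 were lower and 2 higher (56.2%), with a median log2 ratio of -0.17. Pip5k1a, which makes the substrate of the 5-phosphatases from its precursor, read -0.45 ± 0.03, -0.45 ± 0.04 and -0.39 ± 0.01 at 3 probes (SD, n = 3; limma adjusted p from 0.00271 to 0.00316). Pip4k2c read -0.30 ± 0.04 and Pi4k2a 0.25 ± 0.08, and the probes of Pi4ka read -0.40 ± 0.14 and 0.15 ± 0.10 (SD, n = 3). Their limma adjusted p were 0.00524, 0.0126, 0.00756 and 0.0633, and the calls of Pip4k2c, Pi4k2a and Pi4ka were lost without replicate 1 (0.0565, 0.0717 and 0.0569).

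Other phosphoinositide phosphatases went both ways. Of 22 tested probes for 16 of 19 genes 6 were lower and 3 higher (40.9%), with a median log2 ratio of -0.06. The myotubularin genes Mtmr4 and Mtmr1 had disagreeing probes: 0.47 ± 0.10 and -0.20 ± 0.09 for Mtmr4, both past the threshold (limma adjusted p = 0.00393 and 0.0296), and -0.25 ± 0.03, -0.12 ± 0.04 and 0.01 ± 0.10 for Mtmr1 (0.00764, 0.0667 and 0.863). Fig4, a Sac phosphatase like Inpp5f, read -0.25 ± 0.05 (SD, n = 3; limma adjusted p = 0.00925). Fig4, Mtmr1 and the lower Mtmr4 probe lost their calls without replicate 1 (0.0816, 0.0731 and 0.17), and the last also without replicate 2 (0.0829) and with replicates 1 and 2 averaged (0.105).

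In the enzymes that build and recycle inositol phosphates, 8 of 27 tested probes for 19 of 20 genes were lower and 5 higher (48.1%), with a median log2 ratio of 0.00. Cdipt, the enzyme that makes phosphatidylinositol, read -0.40 ± 0.04, and Cds1, which supplies its lipid precursor, -0.39 ± 0.05 and -0.17 ± 0.01 at 2 probes (SD, n = 3). The inositol pyrophosphate kinase genes Ppip5k1 and Ip6k1 read -0.43 ± 0.08 and -0.43 ± 0.14, while other Ip6k1 probes read -0.05 and -0.02. The limma adjusted p were 0.00335 for Cdipt, 0.00347 and 0.0215 for Cds1, 0.00371 for Ppip5k1 and 0.00633, 0.456 and 0.677 for Ip6k1. The smaller Cds1 value lost its call without replicate 1 (limma adjusted p = 0.173), without replicate 2 (0.0554) and with replicates 1 and 2 averaged (0.0803).

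Upstream and downstream of Inpp5a, in the IP3 receptors and phospholipases C, 3 of 11 tested probes for 8 of 13 genes were higher and 1 lower (36.4%), with a median log2 ratio of -0.11. Itpr1, the main IP3 receptor gene of brain neurons, read 0.43 ± 0.09 at one probe (limma adjusted p = 0.00434) and -0.11 ± 0.08 at the other (0.115; SD, n = 3). Plch1 read 0.43 ± 0.18, Plcd1 0.14 ± 0.03 and Plcd4 -0.26 ± 0.03 (SD, n = 3; limma adjusted p = 0.0102, 0.0403 and 0.00756). Plcd4 and Plcd1 lost their calls without replicate 1 (0.0865 and 0.249), and Plcd1 also without replicate 2 (0.0665) or 3 (0.102), with the dye as a covariate (0.0553), with negative controls subtracted (0.0859), with no filter (0.064) and with replicates 1 and 2 averaged (0.109).

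**Figure D5:**
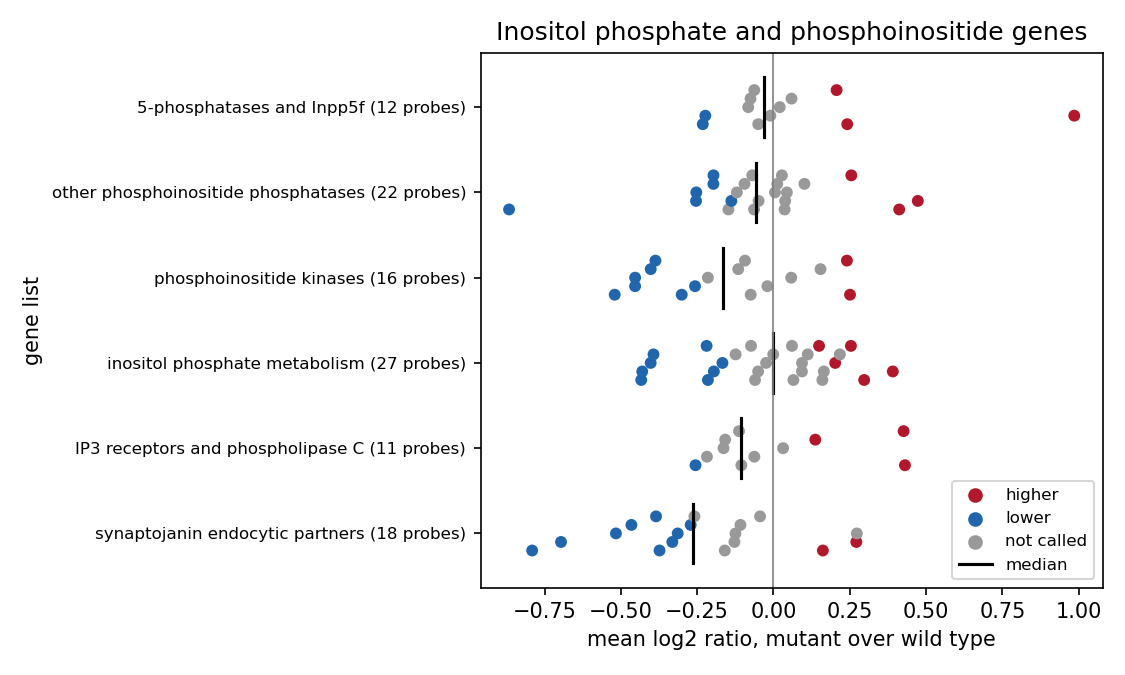
Mean log2 ratio over 3 arrays of every tested probe of the family and of 5 related gene lists; red and blue points passed the limma threshold as higher and lower, grey ones did not, and black bars are medians. The higher Inpp5f probe lies to the right of every other point, and the medians of the kinases (-0.17) and endocytic partners (-0.27) lie below that of the family (-0.03).

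Across the 27531 tested probes the log2 ratios of the arrays correlated with Pearson r of 0.822 between replicates 1 and 2, 0.783 between 1 and 3 and 0.625 between 2 and 3, over probes and not over independent samples. Between 64.4% and 69.7% of gene spots were reliable.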

How the data were processed

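Per the labels' protocols, 500 ng of total RNA with an integrity number of at least 7.0 was amplified and labelled for Agilent oligonucleotide arrays. The authors deposited, per the readme, channel intensities on a linear scale that were quantified with GenePix, background-subtracted, normalized and corrected for the dye swap; for the normalization method the readme has no entry. They also deposited a log2 ratio with repeated spots collapsed, and a value table with a score per spot, a signed fold equal to that of the array files at all 44290 spots. The columns of that table had medians of -1.01, -1 and 1; its scale is linear and its direction that of the channels. Because the deposited intensities were already normalized, loess was used as an alternative only. Spots of a probe were averaged as log2 ratios. A probe was reliable on an array if any of its spots was. Against a mean of 0, ratios were tested by limma (version 3.58.1, with R 4.3.3 and the data.table package, version 1.17.8) with Benjamini-Hochberg adjustment over all tested probes; the procedure was tested on simulated data. Accessions were matched without versions to RefSeq genes on GRCm38.p6, which named 21445 of 41174 probes (52.1%) and 16551 of the tested ones. Tables and figures used Python 3.11.15, pandas 2.3.3 and matplotlib 3.10.9. 0 columns of per-sample values were left unused.

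The members and lists were chosen with earlier results of these data known. The rule for named genes took all members, Gtf2i, in each list up to 4 genes with the smallest p among called probes, 3 protein-coding genes on each side of Inpp5f (leaving out RIKEN and predicted names) and the 5 genes closest in ratio to each Inpp5f probe. The markers of cell classes and brain regions come from a list of cell type markers. Ocrl was added as the relative of Inpp5b. One gene that the rule named is not reported here.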

Additional observations from a re-analysis of the deposited data

How the results depend on the processing

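Of 11 other settings, loess, centring, both other filters on dim probes, subtraction of the negative controls, the dye covariate and the authors' log2 ratio left 5 family probes called. With replicates 1 and 2 averaged, limma called 2 of 12 (0 lower, against 2 at an unadjusted p under 0.05), as well as 5122 probes over all (2151 higher, 2971 lower), 5 of the other phosphatases and 7 of inositol phosphate metabolism. Leaving out 1 replicate at a time gave 1 to 6 calls in the family (1 to 3 higher, 0 to 3 lower, the 0 without replicate 1, where 2 were lower at an unadjusted p under 0.05) and 2407 to 9886 over all tested probes (929 to 4384 higher, 1478 to 5502 lower). In the same runs the other phosphatases had 2 to 9 calls, the kinases 3 to 11, inositol phosphate metabolism 4 to 14, the IP3 and phospholipase C list 2 to 5 and the endocytic partners 5 to 14. The lowest count in each was without replicate 1. For the counts at an unadjusted p under 0.05 the share over all tested probes was not worked out. They therefore describe the members only. The difference between the Inpp5f probes was 0.72 to 0.77 with 1 replicate left out and 1.13 with negative controls subtracted, a step that widens ratios of dim probes by construction. The mean of the higher Inpp5f probe ranged from 0.97 to 1.38 over these settings and that of the other from 0.23 to 0.25. Each array is 1 ratio of both genotypes, so the test of the mean ratio against 0 already pairs the channels of an array. No further pairing was possible because there is 1 group of ratios.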
